A study of Mus musculus with 10 samples.

Results

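The aldehyde dehydrogenase genes followed here are Aldh1a1, Aldh1a7, Aldh1b1, Aldh2, Aldh3a2, Aldh7a1, Aldh1l1, Aldh4a1, Aldh6a1 and Aldh9a1. They were taken by symbol, 10 of the 18869 gene identifiers measured, and all 10 were detected in every library and passed the filter on low values. Livers came from C57BL/6 mice aged 6 weeks, on regular chow and fasted for 15 h, with 5 libraries labelled Nrf2Act-hep (replicates 6 to 10) and 5 labelled wild type, WT (replicates 1 to 5). Nrf2Act-hep is described as activation of NRF2 restricted to the liver. The labels name neither the allele nor the promoter or recombinase behind it, and they do not say whether the WT animals were littermates. Titles carry the letter M for Nrf2Act-hep replicates 6, 7 and 8 and WT replicates 1 and 2, and the letter F for Nrf2Act-hep replicates 9 and 10 and WT replicates 3, 4 and 5. Whether a library is a mouse of its own is not stated, so the p-values rest on variation among libraries that may be technical in part.

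Aldehyde dehydrogenases oxidise aldehydes to carboxylic acids with NAD+ or NADP+ as the acceptor, and the liver is a main site of this chemistry. The members other than Aldh1a7 divide by substrate. Retinaldehyde and lipid peroxidation aldehydes go with Aldh1a1, acetaldehyde with Aldh2 and Aldh1b1, and long-chain fatty aldehydes with Aldh3a2. Aldh4a1, Aldh6a1, Aldh7a1, Aldh9a1 and Aldh1l1 act on aldehydes and formyl groups of amino acid, choline and folate breakdown and of carnitine synthesis. NRF2 is a transcription factor that is held in check by KEAP1 and that switches on antioxidant and detoxification genes through a DNA element known as the antioxidant response element.

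Libraries were QuantSeq, which reads a tag from close to the 3′ end of polyadenylated RNA, so a level does not grow with transcript length and levels of different genes can be set side by side. The depth was 2167528 to 2806670 reads in Nrf2Act-hep libraries and 1267745 to 2287727 in WT libraries, so it moved with genotype; its part in the results was not tested. Levels are CPM, reads scaled to a common total per library, after TMM scaling, a correction that sets the bulk of genes level between libraries. The TMM factors were 0.902 to 0.999 in WT and 1.01 to 1.08 in Nrf2Act-hep, so they too moved with genotype. The most abundant genes were mt-Rnr2, Gm42418 and mt-Rnr1, at means of 163113, 153537 and 68490 CPM before TMM scaling. The letters went with sex-linked transcripts in all 10 libraries: Xist was 0 CPM in every M library and 332 to 560.3 CPM in the F libraries, while Ddx3y was 101 to 117 CPM in M libraries and at most 0.41 CPM in F libraries. As a check of the genotype 15 NRF2 target genes were listed, and 14 passed the filter. The list was chosen with earlier results of these data known, so it is no independent check. Of the 14 tested, 12 rose in Nrf2Act-hep livers by limma, edgeR, DESeq2 and limma-voom alike. Limma called 2.79% of all genes tested higher. Of the 14, 0 fell even at an unadjusted p under 0.05, and Gclm and Hmox1 did not pass. Among those that rose, Gstm3, a glutathione transferase, averaged 124 ± 40.3 CPM in Nrf2Act-hep and 8.53 ± 6.84 CPM in WT (SD, n = 5 each). Cbr3, a carbonyl reductase, was 95.6 to 217 CPM in Nrf2Act-hep libraries and 0 CPM in 4 of the 5 WT libraries.

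Nrf2Act-hep replicate 10, an F library, was often the lowest of its genotype. It was the lowest of the 5 Nrf2Act-hep libraries for 6 of the 10 members (60%) and for 8 of the 14 NRF2 check genes (57.1%), against 23.6% of all 8075 genes tested, and results that rest on it are given below with and without it. All 10 hepatocyte markers of the labelled tissue passed the filter. Their summed level was 34584 to 43279 CPM in Nrf2Act-hep and 45750 to 55624 CPM in WT, without overlap. Alb was the largest part of that sum. It averaged 21586 CPM in Nrf2Act-hep and 29502 CPM in WT, with overlap, and did not pass (limma, adjusted p = 0.080). By limma 3 of the 10, Apoa1, Serpina1a and Trf, fell, and 6 were lower at an unadjusted p under 0.05. Cps1 and Tat leaned up without passing (log2 differences of 0.10 and 0.21). edgeR called 4 of the 10 lower, DESeq2 5 and limma-voom 3. Summed markers of other cells were 413 to 556 CPM in Nrf2Act-hep and 521 to 630.3 CPM in WT for stellate cells. Dcn was the largest part of that sum, at means of 332 CPM in Nrf2Act-hep and 383 CPM in WT. For endothelium the sums were 267 to 341 CPM in Nrf2Act-hep and 264 to 355 CPM in WT. Sums were 201 to 284 CPM in Nrf2Act-hep and 244 to 320.3 CPM in WT for Kupffer cells, and 27.9 to 61.1 CPM in Nrf2Act-hep and 32.5 to 72.8 CPM in WT for bile duct. Krt19 and Krt7, which define bile duct cells, were near 0, at means of 0.380 and 0.530 CPM in Nrf2Act-hep and 1.02 and 1.49 CPM in WT. Of the 8 stellate, 8 endothelial, 9 Kupffer and 2 biliary markers tested, Timd4 of the Kupffer list fell and 0 others passed in limma. There 4 stellate (1 higher, 3 lower), 0 endothelial, 2 Kupffer (both lower) and 0 biliary markers had an unadjusted p under 0.05. DESeq2 called 1 stellate marker lower. T, B and NK cell markers stayed below the filter, with sums of 3.19 to 4.68 CPM in Nrf2Act-hep and 1.91 to 4.65 CPM in WT. In whole liver, fewer cells of a type and less RNA per cell cannot be told apart, and the part of these shifts in the results below was not tested.

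Aldh1a1 and Aldh1a7 are neighbours, and they were the members that were higher in Nrf2Act-hep. On mouse chromosome 19 of GRCm38, Aldh1a1 (ENSMUSG00000053279) runs at chr19:20492715-20643465 on the plus strand and Aldh1a7 (ENSMUSG00000024747) at chr19:20692953-20727562 on the minus strand, so their 3′ ends face each other across 49487 bases. Aldh1a1 makes the cytosolic enzyme that turns retinaldehyde into retinoic acid. Aldh1a7 makes a close cytosolic paralogue described in rodents. The promoter windows below, from RefSeq on GRCm38.p6, hold 250 bases before and 50 after the annotated start. They are shown because they let the likeness of the pair at its start sites be read directly, and capitals mark the stretches of 20 or more bases that are identical in both.
Aldh1a1, chr19:20601718-20602017, plus strand: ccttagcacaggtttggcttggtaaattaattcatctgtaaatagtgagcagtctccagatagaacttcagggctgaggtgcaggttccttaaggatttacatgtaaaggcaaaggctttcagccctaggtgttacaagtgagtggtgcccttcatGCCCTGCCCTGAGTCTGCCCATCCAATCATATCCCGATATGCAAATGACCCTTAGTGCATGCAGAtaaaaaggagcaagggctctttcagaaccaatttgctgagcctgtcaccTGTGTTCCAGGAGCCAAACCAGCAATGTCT
Aldh1a7, chr19:20727507-20727806, minus strand: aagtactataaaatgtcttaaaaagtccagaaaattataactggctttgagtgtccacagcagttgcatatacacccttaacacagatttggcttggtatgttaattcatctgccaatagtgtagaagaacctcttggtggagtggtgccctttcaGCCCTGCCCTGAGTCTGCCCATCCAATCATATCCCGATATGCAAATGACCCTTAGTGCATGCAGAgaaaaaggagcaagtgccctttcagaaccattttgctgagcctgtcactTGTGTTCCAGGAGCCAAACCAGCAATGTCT
These windows were 77.3% identical over 286 aligned bases, and 2 exact runs of 65 and 30 bases made up 95 bases of each. RefSeq lists another start for Aldh1a1, at chr19:20492333-20492632, whose window was 62.1% identical to that of Aldh1a7 over 261 aligned bases.

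The core of the antioxidant response element, TGACNNNGC, was searched for on both strands. It lay in neither Aldh1a1 window nor in that of Aldh1a7, and in 4071 of 32851 RefSeq promoter windows of the same length (12.4%). Of the members, 8 of 10 matched a RefSeq promoter, all but Aldh2 and Aldh7a1, and 1 of their 10 windows held the core. That window belongs to Aldh9a1, where TGACTAGGC began 87 bases before the start. Among the NRF2 check genes 6 of 18 windows, of 13 genes, held it. A match is a description of letters and not of binding, and no match says only that the core is not within these 300 bases.

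Because the pair is so alike, the transcript ends that the tags come from were compared. The longest coding transcripts of Aldh1a1 and Aldh1a7 were 89.0% identical over 2043 aligned bases, and their last 500 bases 82.3% identical over 485. None of the 426 stretches of 75 bases, the read length, in the last 500 bases of either transcript occurred in the other or in any other annotated gene, whereas 50 of 2284 such stretches of the whole Aldh1a1 transcript also occurred in Aldh1a7. An exact full-length tag from either 3′ end can thus be told from the other gene. The same was true of the last 500 bases of the other members except Aldh1l1, where 171 of 426 stretches (40.1%) lay also in the antisense gene Gm15756. On the strand opposite Aldh1a1, C730002L08Rik overlaps 59616 of its bases and the pseudogene Gm6684 overlaps 685. Neither is among the gene identifiers measured. How the authors counted overlapping reads is not given in the sources used here.

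Aldh1a1 was second in level only to Aldh2 in both genotype means. Its level in Nrf2Act-hep replicates 6 to 10 was 764, 749.8, 789, 545 and 366 CPM, against 406, 465, 422, 255 and 212 CPM in WT replicates 1 to 5. The 3 M libraries of Nrf2Act-hep were highest, Nrf2Act-hep replicate 10 lay below WT replicates 1, 2 and 3, and the genotypes therefore overlapped. Aldh1a1 averaged 643 ± 183 CPM in Nrf2Act-hep and 352 ± 111 CPM in WT (SD, n = 5 each). The difference was 0.74 ± 0.16 on the log2(CPM + 1) scale (SE; 95% interval 0.40 to 1.07), a fold of 1.66 with the letter in the model, and limma gave an adjusted p of 0.0086. It was 0.82 among M libraries and 0.65 among F libraries. Without Nrf2Act-hep replicate 10 the difference was 0.86 (limma, adjusted p = 0.0034). The call was lost without WT replicate 1 (0.68, adjusted p = 0.055), without the letter term (0.87, adjusted p = 0.13) and with only F libraries fitted (0.65, adjusted p = 0.40).

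Aldh1a7 was less abundant and separated the genotypes fully. Nrf2Act-hep replicates 6 to 10 had 131, 125, 94.8, 85.7 and 61.6 CPM, against 51.4, 52.7, 53.5, 37.2 and 30.3 CPM in WT replicates 1 to 5. Every Nrf2Act-hep library lay above every WT library, an arrangement that 3.05% of all genes tested showed in this direction and 2.09% in the other, where no member did. The mean was 99.6 ± 28.7 CPM in Nrf2Act-hep and 45.0 ± 10.6 CPM in WT (SD, n = 5 each). The log2 difference was 1.01 ± 0.15 (SE; 95% interval 0.69 to 1.33), a fold of 2.01, with a limma adjusted p of 0.00018. It stood at 1.14 among M libraries and 0.87 among F libraries, and at 1.12 without Nrf2Act-hep replicate 10 (adjusted p = 0.00012); the F libraries alone ended the call (adjusted p = 0.095). Counting error was 5.66% in the library with most reads of Aldh1a7 (312) and 12.6% in the one with fewest (63), below the spread between libraries, whose SD was 28.8% of the mean in Nrf2Act-hep and 23.6% in WT. The other genes in the table within 300 kb of the pair were Anxa1 with 71 reads and Tmc1 with 1 read over all libraries, both below the filter.

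**Figure D1:**
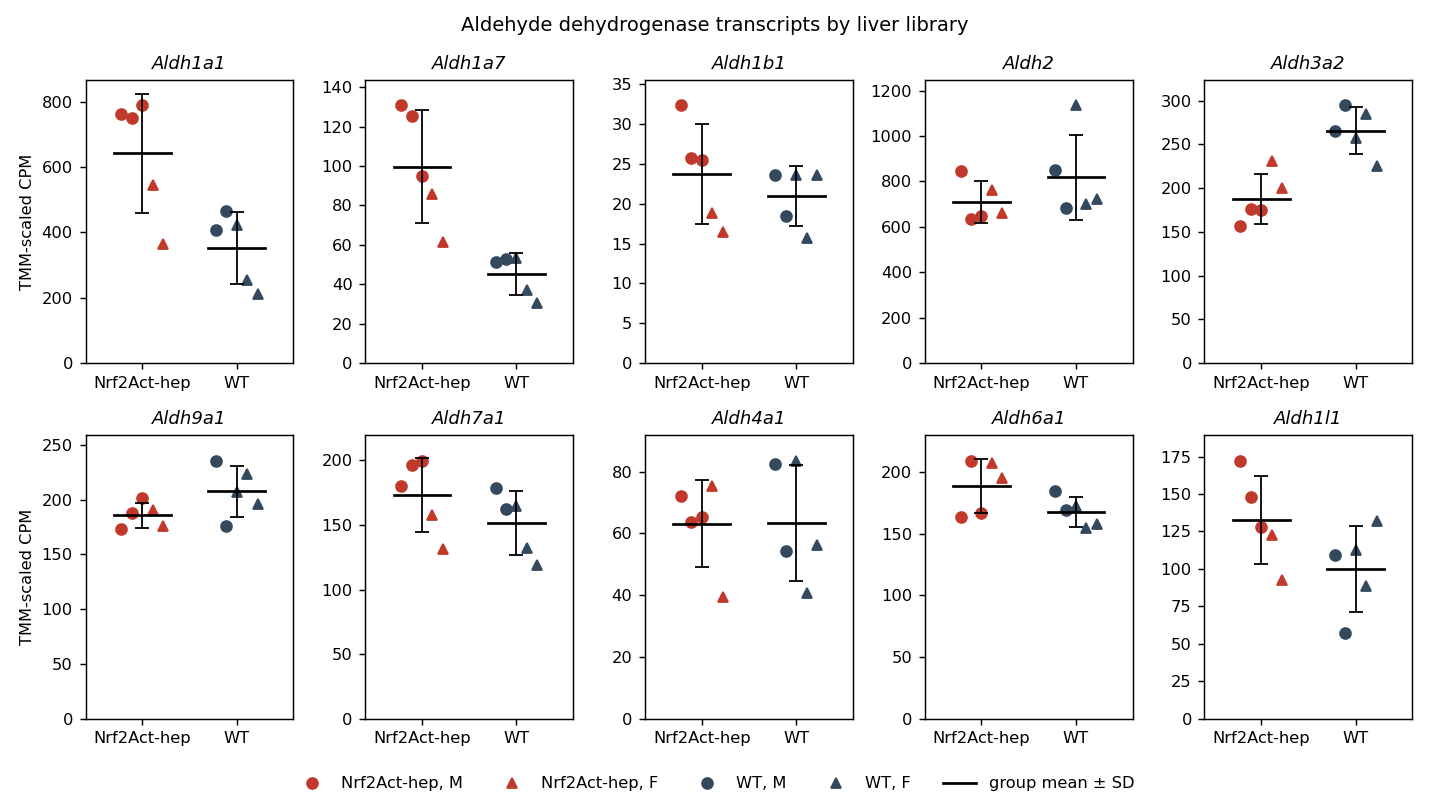
TMM-scaled CPM (y axis, from 0, a scale per panel) of each of the 10 members in each library, Nrf2Act-hep on the left and WT on the right of every panel. Circles and triangles are M and F libraries and the bars show the group mean ± SD. Aldh1a7 is the member whose Nrf2Act-hep points (61.6 to 131) all lie above its WT points (30.3 to 53.5), and Aldh3a2 leans the other way.

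Counted over the family, 2 of the 10 members rose (Aldh1a1, Aldh1a7), 1 fell (Aldh3a2) and 7 did not pass. Over all 8075 genes tested, 2.79% were called higher and 1.86% lower in Nrf2Act-hep, 4.64% in either direction. The median log2 difference of the 10 members was 0.10, with 6 of them positive, beside 0.01 over all genes tested. edgeR, DESeq2 and limma-voom on the recovered reads each gave the same counts of 2 higher and 1 lower. The count of lower members was 0 without Nrf2Act-hep replicate 10, without any 1 of 5 other libraries, and on the deposited scale without TMM, which shifts the median of all genes to 0.13.

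The make-up of the family's signal was described per library as each member's share of the summed level of the 10. The sum was 2407 ± 282 CPM in Nrf2Act-hep and 2192 ± 317 CPM in WT (SD, n = 5 each), and the ranges overlapped, at 1939 to 2690 CPM in Nrf2Act-hep and 1875 to 2631 CPM in WT. Aldh1a1 held 26.3 ± 5.33% of it in Nrf2Act-hep livers (18.9 to 31.7%) and 15.9 ± 4.03% in WT livers (11.3 to 21.8%). The share of Aldh1a7 was 4.08 ± 0.803% in Nrf2Act-hep (3.17 to 4.99%) and 2.04 ± 0.314% in WT (1.62 to 2.47%), without overlap. Aldh2, the leading member in all WT libraries, made up 29.7 ± 3.91% in Nrf2Act-hep and 37.1 ± 4.09% in WT. For Aldh3a2 the share was 7.97 ± 1.92% in Nrf2Act-hep and 12.3 ± 2.00% in WT.

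The ratio of Aldh1a1 to Aldh2 was 0.904, 1.19, 1.22, 0.715 and 0.553 in Nrf2Act-hep replicates 6 to 10 and 0.479, 0.682, 0.372, 0.363 and 0.294 in WT replicates 1 to 5. Aldh1a1 thus exceeded Aldh2 in Nrf2Act-hep replicates 7 and 8 and in no WT library, and replicate 10 of Nrf2Act-hep lay below WT replicate 2. Aldh1a7 stood at 0.157 ± 0.0212 of Aldh1a1 in Nrf2Act-hep and 0.131 ± 0.0133 in WT, and the ranges overlapped, at 0.120 to 0.171 in Nrf2Act-hep and 0.113 to 0.146 in WT. The 8 members other than this pair summed to 1664 ± 117 CPM in Nrf2Act-hep and 1795 ± 240 CPM in WT. Shares of 1 sum depend on each other, so these are descriptions without a test.

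**Figure D2:**
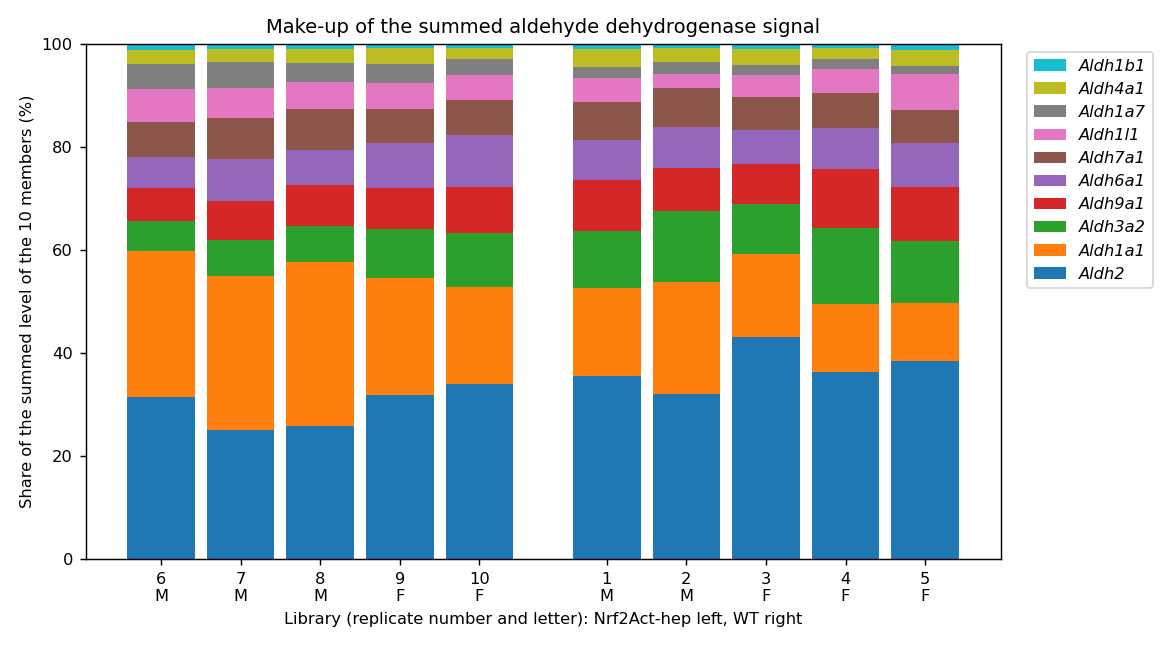
Share (%, y axis) of each member in the summed level of the 10, 1 stacked bar per library, with Nrf2Act-hep replicates left and WT replicates right, and the letter under each bar. The Aldh1a1 block spans 18.9 to 31.7% in Nrf2Act-hep and 11.3 to 21.8% in WT, and the Aldh3a2 block is 7.97% in Nrf2Act-hep and 12.3% in WT on average.

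Aldh3a2 (ENSMUSG00000010025, chr11:61223417-61267464, minus strand) encodes fatty aldehyde dehydrogenase, the membrane-bound enzyme that oxidises long-chain aldehydes from phytol, ether lipids and sphingosine-1-phosphate. It was the member that fell. Nrf2Act-hep replicates 6 to 10 had 157, 176, 175, 231 and 200.3 CPM, against 266, 295, 257, 285 and 226 CPM in WT replicates 1 to 5. Nrf2Act-hep replicate 9 lay just above WT replicate 5, and otherwise the genotypes were apart. Its mean was 188 ± 28.6 CPM in Nrf2Act-hep and 266 ± 26.8 CPM in WT (SD, n = 5 each), a log2 difference of -0.48 ± 0.13 (SE; 95% interval -0.74 to -0.22; limma, adjusted p = 0.025). The difference was -0.72 among M libraries and -0.24 among F libraries. The call was less stable than that of the pair: it did not hold on the deposited scale (-0.35, adjusted p = 0.12) or in 6 of the 10 fits that left out a library, those without WT replicates 1 or 2 or Nrf2Act-hep replicates 6, 7, 8 or 10, with adjusted p between 0.0502 and 0.11, nor with only F libraries fitted (adjusted p = 0.72). Usp22, the nearest neighbour that passed the filter, had a log2 difference of 0.26 ± 0.15 (limma, adjusted p = 0.42).

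Aldh2 and Aldh1b1 are the mitochondrial members that act on acetaldehyde, Aldh2 being the main one in ethanol clearance. Aldh2 (ENSMUSG00000029455, chr5:121566027-121593824, minus strand) had 845, 632, 647, 762 and 661 CPM in Nrf2Act-hep replicates 6 to 10 and 849, 682, 1134, 702 and 722 CPM in WT replicates 1 to 5. WT replicate 3 was the highest, and the ranges overlapped. The means were 709 ± 91.3 CPM in Nrf2Act-hep and 818 ± 188 CPM in WT (SD, n = 5 each), with a log2 difference of -0.17 ± 0.14 that did not pass (95% interval -0.47 to 0.13; limma, adjusted p = 0.61). Aldh1b1 (ENSMUSG00000035561, chr4:45799022-45804604, plus strand) was the least abundant member, at 16.4 to 32.4 CPM in Nrf2Act-hep and 15.7 to 23.7 CPM in WT. It rested on 22 to 76 reads a library, and the log2 difference was 0.09 ± 0.18 (95% interval -0.28 to 0.46; adjusted p = 0.86).

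The members of amino acid breakdown did not pass the test, and their intervals all spanned 0. Aldh4a1 (ENSMUSG00000028737, chr4:139622866-139649690, plus strand) oxidises the semialdehyde made from proline, and was 39.4 to 75.3 CPM in Nrf2Act-hep and 40.6 to 83.4 CPM in WT. Its log2 difference was -0.04 ± 0.20 (95% interval -0.47 to 0.39; limma, adjusted p = 0.96), and the sign turned on the deposited scale (0.09), without a filter (0.003) and without the letter term (0.01). Gm21969, an annotated gene on the same strand, spans the whole of Aldh4a1, although 0 of 426 stretches in the last 500 bases of the Aldh4a1 transcript were shared with another gene. Aldh6a1 (ENSMUSG00000021238, chr12:84430717-84451004, minus strand) oxidises methylmalonate semialdehyde from valine. It was 164, 209, 167, 208 and 195 CPM in Nrf2Act-hep replicates 6 to 10 and 185, 169, 173, 154 and 158 CPM in WT replicates 1 to 5, ranges that overlapped. The log2 difference was 0.17 ± 0.12 (95% interval -0.08 to 0.41; adjusted p = 0.53).

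Aldh7a1 (ENSMUSG00000053644, chr18:56509687-56572951, minus strand), also called antiquitin, acts on the semialdehyde of lysine breakdown and on betaine aldehyde from choline. It was 132 to 199.6 CPM in Nrf2Act-hep and 119 to 179 CPM in WT, with a log2 difference of 0.12 ± 0.12 (95% interval -0.13 to 0.37; limma, adjusted p = 0.68). Part of it is overlapped by Phax on the opposite strand, which had 647 reads over all libraries. Aldh9a1 (ENSMUSG00000026687, chr1:167349991-167368532, plus strand) serves carnitine synthesis through trimethylaminobutyraldehyde. Its libraries were close together, at 173 to 201 CPM in Nrf2Act-hep and 176 to 235 CPM in WT, and the log2 difference of -0.15 ± 0.12 did not pass (95% interval -0.40 to 0.09; adjusted p = 0.57).

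Aldh1l1 (ENSMUSG00000030088, chr6:90486427-90600203, plus strand) is the cytosolic enzyme that converts formyltetrahydrofolate to tetrahydrofolate and carbon dioxide. Nrf2Act-hep replicates 6 to 10 had 172, 148, 128, 123 and 92.4 CPM, against 109.5, 56.9, 113, 88.8 and 132 CPM in WT replicates 1 to 5. WT replicate 2 was the lowest of all 10 libraries and the ranges overlapped. The log2 difference was 0.43 ± 0.23 (95% interval -0.06 to 0.92; limma, adjusted p = 0.38), the widest interval of the 10 members. Gm45901 on the same strand overlaps 33054 bases of Aldh1l1. The log2 difference of Aldh1l1 was 0.14 without WT replicate 2. Among M libraries fitted alone it was 0.90 and passed (adjusted p = 0.039), while among F libraries alone it was -0.05.

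**Figure D3:**
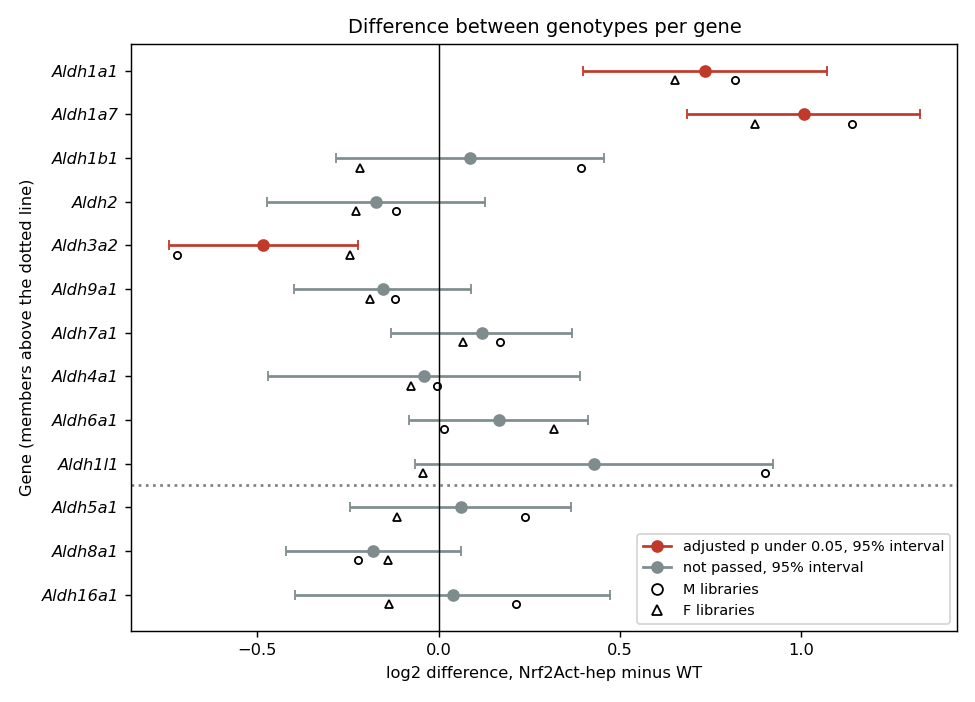
Log2 difference between genotypes (x axis, Nrf2Act-hep minus WT) for the 10 members above the dotted line and the 3 other tested family genes below it, with 95% intervals. Filled points in red passed an adjusted p of 0.05, and open circles and triangles give the difference within M and within F libraries. The intervals of Aldh1a1, Aldh1a7 and Aldh3a2 lie clear of 0.

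Ordered by mean level in Nrf2Act-hep, the members ran Aldh2 (709 CPM), Aldh1a1 (643), Aldh6a1 (189), Aldh3a2 (188), Aldh9a1 (186), Aldh7a1 (173), Aldh1l1 (133), Aldh1a7 (99.6), Aldh4a1 (63.1) and Aldh1b1 (23.8). In WT the order was Aldh2 (818 CPM), Aldh1a1 (352), Aldh3a2 (266), Aldh9a1 (207), Aldh6a1 (168), Aldh7a1 (152), Aldh1l1 (99.95), Aldh4a1 (63.4), Aldh1a7 (45.0) and Aldh1b1 (21.0). The ranges of Aldh2 and Aldh1a1 overlapped in Nrf2Act-hep (632 to 845 and 366 to 789 CPM) and did not in WT (682 to 1134 and 212 to 465 CPM). The levels of Aldh6a1, Aldh3a2 and Aldh9a1 in Nrf2Act-hep differed by less than their spread between libraries.

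The letters gave a further comparison. Aldh1a1 was higher in M libraries than in F libraries by 0.70 ± 0.16 on the log2 scale (limma with genotype in the model, adjusted p = 0.033), the 1 member called among 10, where 1.16% of all genes tested were called. The M means were 767 CPM in Nrf2Act-hep and 436 CPM in WT, and the F means 455 CPM in Nrf2Act-hep and 296 CPM in WT. The call did not hold in 8 of the 10 fits that left out a library. Among them was the fit without Nrf2Act-hep replicate 10 (0.56; limma, adjusted p = 0.17). Aldh1a7 (0.53 ± 0.15, adjusted p = 0.12) and Aldh7a1 (0.36 ± 0.12, adjusted p = 0.21) leaned the same way without passing. A difference of the genotype effect between M and F was called by limma for 0 of the 10 members, with 1, Aldh1l1, at an unadjusted p under 0.05 (0.94 ± 0.34, M minus F, adjusted p = 0.59), and for 0.0248% of all genes. For Aldh3a2 that difference was -0.48 ± 0.23 (adjusted p = 0.71).

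Of 11 other mouse aldehyde dehydrogenase genes looked for, 8 were in the table and 3 passed the filter. Aldh8a1, of kynurenine breakdown, averaged 171 ± 13.3 CPM in Nrf2Act-hep and 194 ± 18.9 CPM in WT (log2 difference -0.18 ± 0.12, adjusted p = 0.48). Aldh5a1, which oxidises succinate semialdehyde from GABA, averaged 39.5 ± 7.28 CPM in Nrf2Act-hep and 36.3 ± 4.14 CPM in WT (0.06 ± 0.15, adjusted p = 0.89). Aldh16a1, a less studied member, averaged 12.0 ± 2.52 CPM in Nrf2Act-hep and 12.3 ± 3.68 CPM in WT (0.04 ± 0.21, adjusted p = 0.96; SD, n = 5 each). None of these 3 was called by limma, edgeR, DESeq2 or limma-voom, and 0 had an unadjusted p under 0.05 in any of them. The retinaldehyde dehydrogenases Aldh1a2 and Aldh1a3 had 0 and 1 reads over the 5 Nrf2Act-hep libraries, against 2 and 5 over the 5 WT libraries. Aldh1l2, the mitochondrial relative of Aldh1l1, had 0 reads in Nrf2Act-hep and 1 in WT, and Aldh18a1, of proline synthesis, 2 in Nrf2Act-hep and 1 in WT. Aldh3b1 had 8 reads in Nrf2Act-hep and 2 in WT, a difference that an exact two-sided permutation test did not pass (p = 0.17, smallest possible 0.0079). At these depths 3 reads equal 1.07 to 1.38 CPM in Nrf2Act-hep and 1.31 to 2.37 CPM in WT, so a fall in these 5 genes was not detectable at this depth. Aldh3a1, Aldh3b2 and Aldh3b3 were not analysed here.

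Genes that work beside the members were read by pathway. Of all 8075 genes tested, limma called 4.64% in either direction, 2.79% higher and 1.86% lower. The counts per list below are descriptions to set beside these shares, without a test of any list. Among 16 alcohol dehydrogenases and retinoid genes tested, 1 rose and 1 fell by limma, edgeR and limma-voom, while DESeq2 called 1 higher and 2 lower, and 5 had an unadjusted limma p under 0.05 (3 higher, 2 lower). The median log2 difference was -0.04. Rdh16, a microsomal retinol dehydrogenase, had 50.7, 50.3, 50.1, 46.4 and 48.0 CPM in Nrf2Act-hep replicates 6 to 10 and 34.5, 29.3, 37.6, 28.4 and 22.3 CPM in WT replicates 1 to 5, without overlap (0.67 ± 0.14; limma, adjusted p = 0.0061). Dhrs4, a peroxisomal carbonyl and retinal reductase, averaged 121 ± 12.7 CPM in Nrf2Act-hep and 178 ± 29.4 CPM in WT (SD, n = 5 each), again apart (-0.56 ± 0.13, adjusted p = 0.013), though the call was lost without WT replicate 1 (adjusted p = 0.053) or 2 (0.067) and on the deposited scale (0.056). The remaining 14 did not pass in limma.

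In the fatty aldehyde, phytol and sphingosine-1-phosphate list around Aldh3a2, 1 of 11 genes fell and 0 rose by limma, edgeR, DESeq2 or limma-voom (2 higher and 3 lower at an unadjusted limma p under 0.05), and the median log2 difference was 0.04. Pecr, a peroxisomal enoyl reductase of phytol breakdown, averaged 113 ± 18.7 CPM in Nrf2Act-hep and 143 ± 16.6 CPM in WT with overlap (-0.41 ± 0.11; limma, adjusted p = 0.036), a call that held in 11 of 24 alternatives. It was lost in 7 of the 10 fits without a library, and the adjusted p was 0.15 on the deposited scale, 0.16 without a filter, 0.054 with a filter of 1 CPM and 0.17 without the letter term. In proline and lysine breakdown 1 of 11 fell by limma and 0 rose (2 higher and 3 lower at an unadjusted p under 0.05; edgeR, DESeq2 and limma-voom also called 0 higher and 1 lower), and the median was -0.05. The gene that fell was Prodh, proline dehydrogenase, the step before Aldh4a1, at 25.8 ± 2.60 CPM in Nrf2Act-hep and 39.3 ± 7.57 CPM in WT, without overlap (-0.57 ± 0.16, adjusted p = 0.033). That call failed in 6 of the 10 fits without a library, and the adjusted p was 0.11 on the deposited scale and 0.077 without a filter.

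Valine and branched-chain amino acid breakdown, the route of Aldh6a1, had 0 of 15 genes called by limma, edgeR, DESeq2 or limma-voom, with 2 at an unadjusted limma p under 0.05, both lower, and a median of -0.07. Its most abundant genes were Abat, a transaminase, at 177 ± 37.1 CPM in Nrf2Act-hep and 179 ± 22.6 CPM in WT, and Echs1, enoyl-CoA hydratase, at 156 ± 12.0 CPM in Nrf2Act-hep and 157 ± 24.0 CPM in WT. The folate, choline and carnitine list around Aldh1l1, Aldh7a1 and Aldh9a1 had 0 of 12 called by those 4 tools, with 1 at an unadjusted limma p under 0.05, and a median of -0.12. Bhmt, betaine-homocysteine methyltransferase, averaged 1578 ± 495 CPM in Nrf2Act-hep and 1839 ± 319 CPM in WT. It passed as lower in the limma fit of F libraries alone (-0.87, adjusted p = 0.030), while its difference among M libraries was 0.26. A difference of the genotype effect on Bhmt between M and F was not called (limma, adjusted p = 0.21). The M libraries of WT had 1936 CPM (replicate 1) and 1274 CPM (replicate 2), those of Nrf2Act-hep 2121, 2024 and 1557 CPM. Gnmt, glycine N-methyltransferase, averaged 1018 ± 92.4 CPM in Nrf2Act-hep and 920.2 ± 98.2 CPM in WT. In the NRF2 check list the median was 2.10. With fewer samples, M libraries alone ended the calls of Rdh16 (adjusted p = 0.065), Prodh (0.37) and Pecr (0.33), and F libraries alone those of Rdh16 (0.22), Dhrs4 (0.58), Prodh (0.17) and Pecr (0.29).

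**Figure D4:**
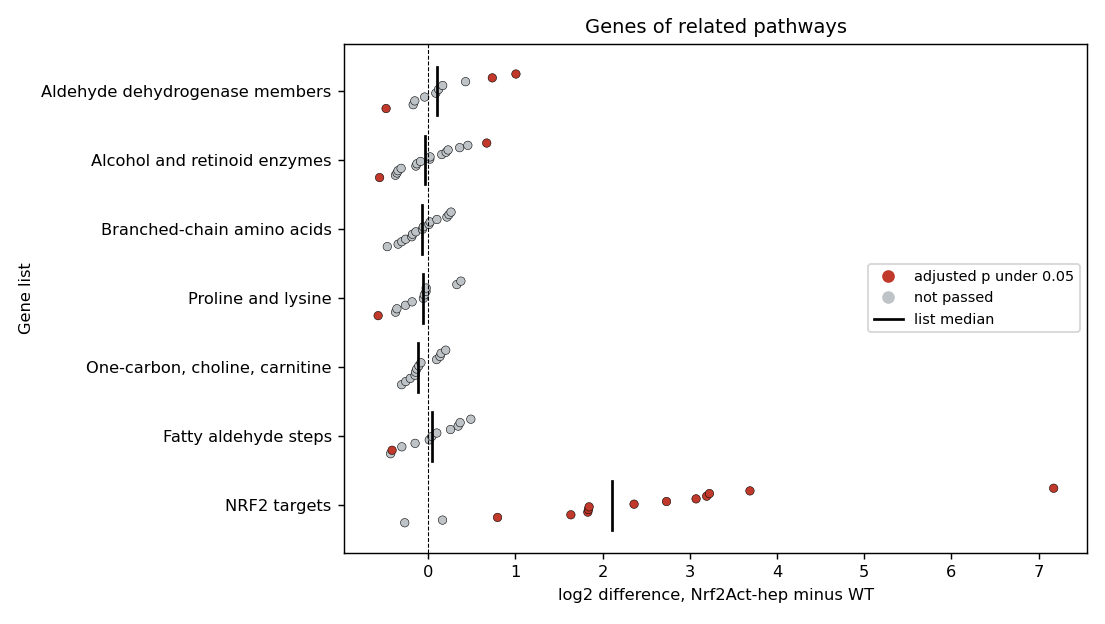
Log2 difference (x axis, Nrf2Act-hep minus WT) of every tested gene, 1 point a gene, for the 10 members and each related list. Red points passed an adjusted p of 0.05 and the vertical bar is the list median. The medians of the 6 aldehyde-related lists lie between -0.12 and 0.10, while that of the NRF2 check list is 2.10.

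Across 24 alternatives to the reported fit, the differences of Aldh1a7 ran from 0.77 to 1.14, those of Aldh1a1 from 0.64 to 0.87 and those of Aldh3a2 from -0.72 to -0.25, without a change of direction. The lowest value of Aldh1a7 is that of the reads of the pair summed, which is not a fit of Aldh1a7 itself. Over all libraries Aldh1a1 had 10637 reads and Aldh1a7 1587. Fitted by itself, Aldh1a7 was lowest in F libraries alone, at 0.87. Aldh1l1 ran from -0.05 to 0.90.

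**Figure D5:**
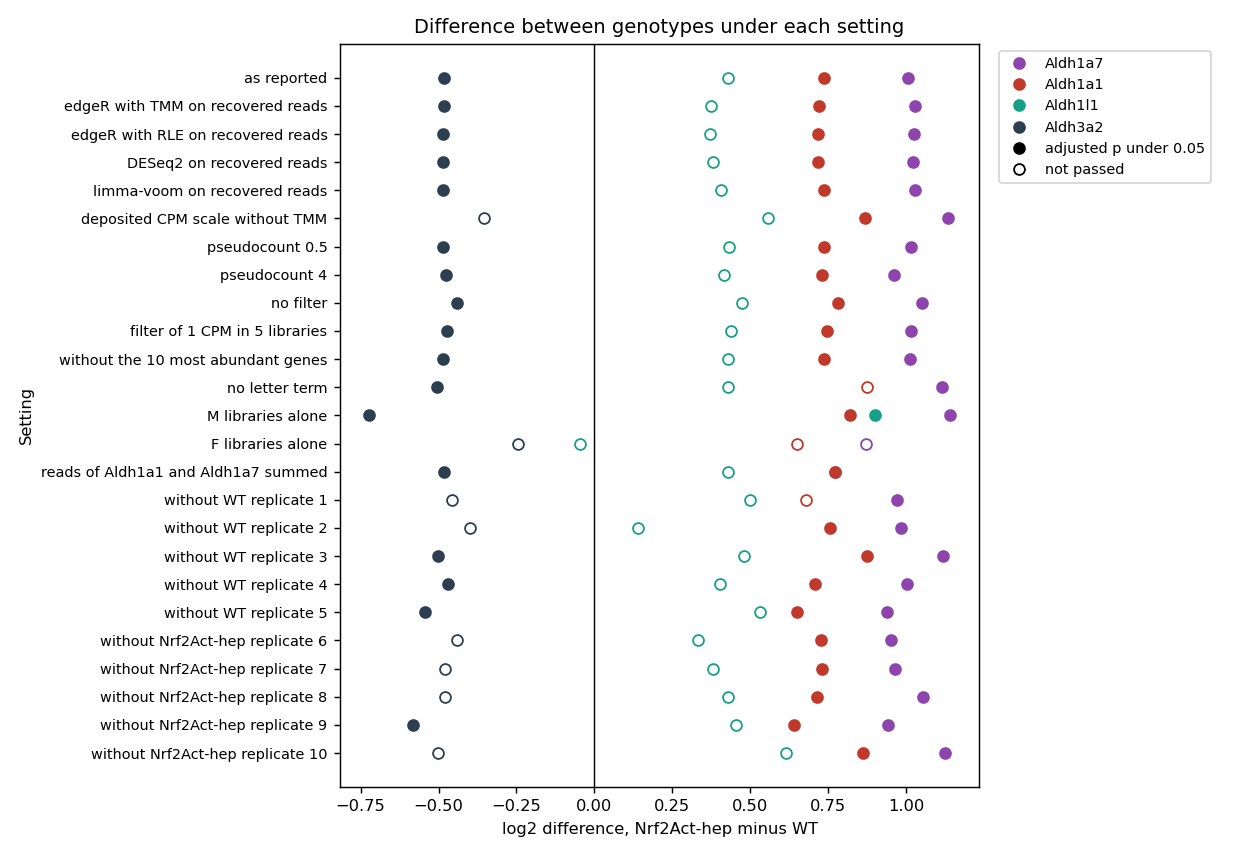
Log2 difference (x axis, Nrf2Act-hep minus WT) of Aldh1a7, Aldh1a1, Aldh1l1 and Aldh3a2 under each processing alternative (rows), filled where the adjusted p was under 0.05. Aldh1a7 is filled in every row but F libraries alone, Aldh3a2 is open in several leave-one-out rows, and Aldh1l1 is filled in M libraries alone. In the row of summed reads, Aldh1a1 and Aldh1a7 share a single value.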

How the data were processed

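In all, 10 liver libraries were profiled by QuantSeq, 75-base single reads. The authors deposited 1 table of CPM values. Per the submitters' processing notes reads were placed on GRCm38; which aligner, counter, annotation and strand setting served is not given in the sources used here. In every column 100% of the values were whole multiples of 1 read within 0.01 read, so reads were recovered, for the alternative count tests. GENCODE M21 symbols matched 18799 identifiers and 70 did not match.

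Genes with at least 10 reads at the median depth (4.50 CPM) in 5 libraries and 15 reads in all were kept (8075). limma 3.58.1 (trend, robust; R 4.3.3) was fitted to log2(CPM + 1), which understates changes of low genes, after TMM scaling (edgeR 4.0.16), with the M or F letter as covariate, and p-values were adjusted over all kept genes by Benjamini-Hochberg (0.05). Alternatives were edgeR, DESeq2 1.42.0, limma-voom, other scalings, pseudocounts, filters, subsets and each library left out. The limma fits of genotype and of the interaction were checked on simulated reads, and the other tests were not. Floors and errors from reads cover counting error only. Members and gene lists, of which 2 genes are not reported here and were left out of the counts, were chosen with earlier results of these data known. All Aldh genes are named; of each list, up to 3 genes past the threshold per direction with the largest change, or the 2 most abundant where none passed, and up to 4 of the NRF2 list. Genes named beside these (Xist, Ddx3y, markers, neighbours, Gclm, Hmox1, mt-Rnr2, Gm42418, mt-Rnr1) were chosen as checks or after their values were seen.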

Additional observations from a re-analysis of the deposited data

Results flagged for a closer look

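Dixon's test was run on 50 groups of 5 libraries, 25 genes in each genotype, and flagged 4; chance flags about 1 group in 20. No member of the aldehyde dehydrogenase family was flagged. Gstm3 in Nrf2Act-hep replicate 10 was 54.2 CPM, far from the 131 to 156 CPM of the other 4 Nrf2Act-hep libraries. Gsta2 in the same library was 31.2 CPM, where the other 4 were 60.7 to 70.3 CPM. Bhmt in WT replicate 2 was 1274 CPM, below the 1936 to 2044 CPM of the other WT libraries. Cbr3 in WT replicate 1 was 0.676 CPM, a single read, where the other WT libraries had 0.

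Nrf2Act-hep replicate 10, which holds 2 of the flags, had 366 CPM of Aldh1a1 and 61.6 CPM of Aldh1a7, against means over replicates 6 to 9 of 712 and 109 CPM, ratios of 0.514 and 0.564.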

How the results depend on the processing

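The call of Aldh1a7 held in 23 of 24 alternatives, all but the fit of F libraries alone (0.87, adjusted p = 0.095). That of Aldh1a1 held in 21 of 24, and that of Aldh3a2 in 16 of 24. For Aldh1a7 and Aldh1a1 these counts include the fit of their summed reads, which tests neither gene by itself. Aldh1a1 and Aldh3a2 were also lost in F libraries alone (adjusted p = 0.40 and 0.72). No alternative changed the direction of these 3. The deposited scale gave 384 genes higher and 80 lower, with 0 members lower. Dropping the letter term left 1 member higher, and summing the reads of Aldh1a1 and Aldh1a7 also gives 1 by construction (0.77, adjusted p = 0.0048). M libraries alone gave 250 genes, 162 higher and 88 lower, with 3 members higher and 1 lower. F libraries alone gave 130 genes, 82 higher and 48 lower, and 0 members in either direction. Both fits rest on 5 libraries, and why their counts differ was not tested. Without a filter 18 interaction genes were called. For other changes of count the cause was not tested. Leaving out 1 library gave 245 to 345 genes called (245 without WT replicate 1, 248 without Nrf2Act-hep replicate 7), 147 to 205 higher and 84 to 152 lower. Of the members 1 to 2 were higher and 0 to 1 lower. Between M and F 57 to 147 genes were called, with 0 to 2 members, and 1 to 12 interaction genes. The pathway lists, the NRF2 check list and the other Aldh genes counted together gave 14 to 16 genes. In the reported fit that count was 16, of which 12 were NRF2 check genes. Signs turned for Aldh4a1 (0.088 on the deposited scale, 0.0028 without a filter, 0.0098 without the letter term), Aldh16a1 (-0.015 without the letter term, -0.14 in F alone), and in F alone for Aldh1b1 (-0.22), Aldh1l1 (-0.045), Aldh5a1 (-0.12) and Echs1 (-0.18). Abat turned on the deposited scale (0.063) and in M alone (0.12), and Bhmt in M alone (0.26). Over the fits without a library Aldh4a1 ran from -0.21 to 0.14, Aldh16a1 from -0.056 to 0.17, Aldh1b1 from -0.049 to 0.19, Aldh5a1 from -0.058 to 0.20, Abat from -0.21 to 0.083 and Echs1 from -0.094 to 0.11; none of these 6 passed in any of them. No paired analysis was possible because replicate numbers run from 1 to 10 without repeats. Among the family genes tested, Aldh16a1 and Aldh1b1 had the fewest reads, 254 and 466 over all libraries.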
